A study of Homo sapiens with 23 samples.

Results

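Expression of 6 target genes of the peroxisome proliferator-activated receptors (PPARs) that are known to respond quickly to fatty acids was compared between free fatty acids (FFAs)-treated and control cells. The genes were PDK4, CPT1A, ANGPTL4, FGF21, CREB3L3 and VNN1, 6 of the 60564 genes in each mRNA-seq table. They were chosen by symbol as textbook PPAR targets, with earlier results of these data known. The mRNA-seq covered 23 libraries of 2 established human cell lines, Caco-2 (11 libraries), which was derived from a colon tumour and is used as a model of the intestinal epithelium, and HepG2 (12 libraries), which was derived from a liver tumour and is used as a model of hepatocytes. Both lines were cultured in the iGLC platform, a microfluidic gut-liver chip, either alone (mono-culture) or with the other line (co-culture). They received 1 mM FFAs, palmitic and oleic acid at a molar ratio of 1:2, or no FFAs (control), and were harvested after 1 day. According to the methods, cells were starved in serum-free medium before the FFAs. For the treatment itself the labels give 0.5% serum in all libraries, and the methods serum-free medium with albumin. Every group had 3 libraries except the co-cultured Caco-2 control, which had 2. The study's methods speak of independent experiments and biological replicates for the mRNA-seq, but neither they nor the labels say which libraries came from separate chips or experiments. The p-values measure the spread between these libraries, which may be technical. Both lines are cancer-derived and serve as models of the tissues only within that limit. Expression is given in TPM, the authors' unit of transcript abundance, which is scaled by transcript length and library total, so levels of different genes can be compared. TPM hold no read counts, so the sequencing depth behind each value is unknown.

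PPARs are nuclear receptors that bind fatty acids and their derivatives, pair with a retinoid X receptor (RXR) and switch on genes of fatty acid uptake, oxidation and ketone production. The pair recognises a direct repeat of the 6-base core AGGTCA with 1 base between the copies, the element called DR1. In liver and intestine, PDK4 inhibits the pyruvate dehydrogenase complex and so spares glucose, CPT1A carries out the committed step of long-chain fatty acid entry into mitochondria, ANGPTL4 is a secreted inhibitor of lipoprotein lipase, and FGF21 is a hormone of the fasting response. CREB3L3 is a transcription factor anchored in the endoplasmic reticulum and released by proteolysis, and VNN1 is a membrane-bound pantetheinase that returns pantothenate from pantetheine.

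The sequences upstream of the genes were read to see where the DR1 letters occurred. Windows of 250 bases before the RefSeq start were read for 5 of the 6 genes, all but VNN1 (GRCh38.p14). For ANGPTL4 and CPT1A this start lies downstream of the start in GENCODE, whose coordinates are given for the genes below, so the ANGPTL4 window lies inside the GENCODE gene and the CPT1A window overlaps it. The 13-letter element AGGTCANAGGTCA, in which N is any base, was searched on both strands of these windows and of all 35116 windows of the same length. The CREB3L3 window held a match with 1 mismatch in 12 compared positions, which 0.288% of all windows held, and the core AGGTCA, which 12.1% held and which overlaps the second copy of the repeat. The best matches of PDK4, ANGPTL4 and FGF21 had 4 mismatches, and 68.7% of all windows held a match at least as close. That of CPT1A had 5. None of these 4 windows held the core. The windows of CREB3L3 (chr19:4153381-4153630, plus strand) and PDK4 (chr7:95596517-95596766, minus strand) are shown because they are the closest match and the gene with the highest FFAs to control ratio of the 6, 5.92 in co-cultured Caco-2 cells. Capitals mark the 13-base match.
CREB3L3: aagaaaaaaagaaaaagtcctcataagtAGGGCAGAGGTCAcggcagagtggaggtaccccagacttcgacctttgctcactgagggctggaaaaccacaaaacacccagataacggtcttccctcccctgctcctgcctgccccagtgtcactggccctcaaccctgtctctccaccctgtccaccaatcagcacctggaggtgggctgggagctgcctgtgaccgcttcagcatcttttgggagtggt
PDK4: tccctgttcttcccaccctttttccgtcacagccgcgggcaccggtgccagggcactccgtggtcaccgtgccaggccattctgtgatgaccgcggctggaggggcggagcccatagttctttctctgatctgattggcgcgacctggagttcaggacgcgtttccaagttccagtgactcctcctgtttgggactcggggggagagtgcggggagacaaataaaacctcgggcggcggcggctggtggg
The match in CREB3L3 lay on the strand of the gene, at chr19:4153409-4153421, between bases -222 and -210 from the start. Counted from 1 at the 5′ end of the element, its substitution was T4G, with the base of the element first and that of the site second. A match describes letters only, and no binding was measured in these cells.

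The 2 lines were separated by their markers. The summed level of 12 hepatocyte markers was 67971 to 101766 TPM in HepG2 libraries and 5552 to 8551 TPM in Caco-2 libraries, and 11 of the 12, all but TTR, were higher in every HepG2 library. The summed level of 12 intestinal epithelial markers was 1269 to 1606 TPM in Caco-2 libraries and 168 to 269 TPM in HepG2 libraries, and 9 of the 12, all but CDX1, LGALS4 and KRT20, were higher in every Caco-2 library. Libraries held 20996 to 23689 genes above 0 TPM in Caco-2 cells and 19259 to 22416 in HepG2 cells. Carry-over of RNA between co-cultured lines was gauged from 34 HepG2 genes that were near absent from mono-cultured control Caco-2 cells. Their summed level in Caco-2 libraries was 0.10% to 0.183% of the HepG2 level in mono-culture, but 2.08% in replicate 1 of the co-cultured FFAs-treated group and 0.825% in replicate 1 of the co-cultured control. The other 3 co-cultured Caco-2 libraries were at 0.0883% to 0.242%. In HepG2 libraries the same measure over 63 Caco-2 genes was 0.282% to 0.613% in the 3 co-cultured FFAs-treated libraries, above the 0.127% to 0.249% of the other 9.

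In Caco-2 cells the 6 genes were ordered, by their median over 11 libraries, as CPT1A (7.61 TPM), CREB3L3 (5.20 TPM), ANGPTL4 (1.66 TPM), PDK4 (0.90 TPM), FGF21 (0.13 TPM) and VNN1 (0.01 TPM). The ranges of all 5 pairs of neighbours in this order overlapped. In HepG2 cells the order over 12 libraries was CREB3L3 (26.5 TPM), CPT1A (5.92 TPM), VNN1 (2.1 TPM), ANGPTL4 (1.31 TPM), FGF21 (0.38 TPM) and PDK4 (0.105 TPM). Here CPT1A, at 4.66 to 8.43 TPM, did not overlap VNN1, at 1.15 to 4.38 TPM, and the other neighbours overlapped.

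**Figure D1:**
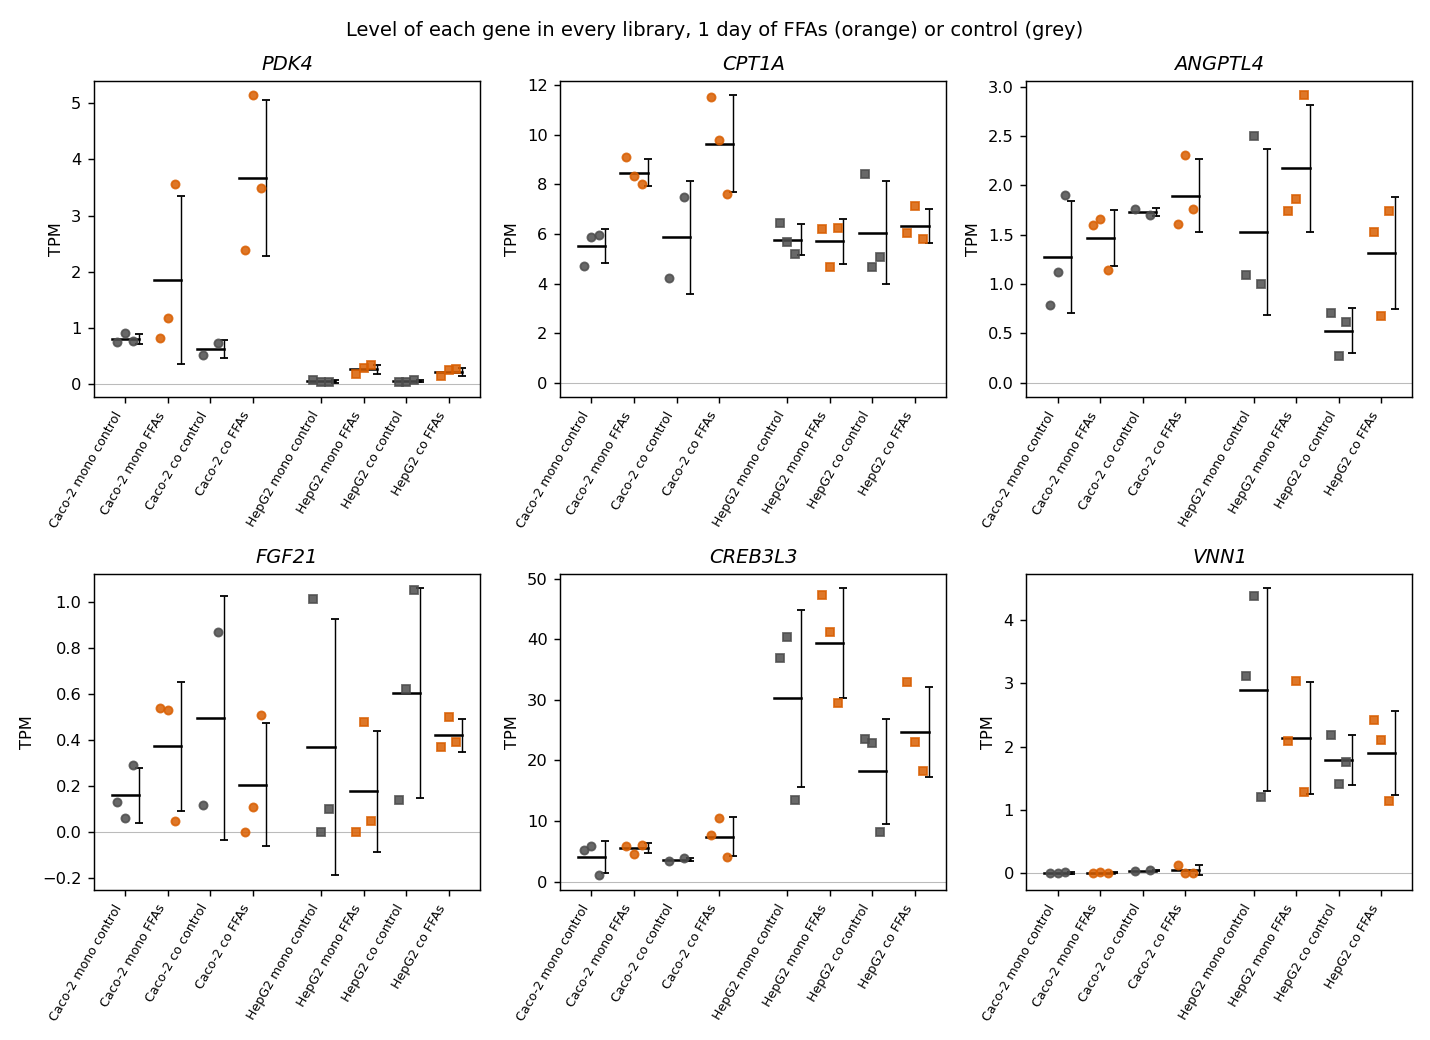
TPM of each of the 6 genes in every library by cell line, culture and treatment. Circles are Caco-2 and squares HepG2 libraries, orange is FFAs and grey control, the horizontal bar is the group mean and the whisker the SD (n = 3, or 2 for co-cultured control Caco-2 cells). With FFAs, CPT1A lay higher in Caco-2 cells, and PDK4 lay higher in co-cultured Caco-2 cells and in HepG2 cells but overlapped with controls in mono-cultured Caco-2 cells. CREB3L3 and VNN1 lay higher in HepG2 than in Caco-2 cells, and FGF21 stayed at or under 1.05 TPM.

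The levels of CREB3L3, VNN1 and PDK4 differed between the lines. In limma across all 23 libraries, on log2(TPM + 1) and averaged over the 4 groups of each line, CREB3L3 was 2.21 higher in HepG2 cells (SE 0.24, adjusted p = 6.01e-08) and VNN1 1.57 higher (SE 0.13, adjusted p = 1.69e-09). PDK4 was lower in HepG2 cells, with a difference of -1.09 (SE 0.13, adjusted p = 2.07e-07). Of the 16495 genes tested, 79.0% differed between the lines at this threshold (4814 higher and 8216 lower in HepG2 cells), so a difference between these lines is the usual case. VNN1 entered this fit only through its HepG2 groups and PDK4 only through its treated Caco-2 groups, so both had to differ. With the filter on low values dropped, their limma adjusted p-values over 34278 genes were 1.49e-08 and 8.54e-07. The median over the 16495 genes that passed the filter was -0.24. It was -0.05 after median-of-ratios scaling (6104 higher and 6717 lower) and 0.02 after quantile normalization (6517 higher and 6317 lower). In bulk libraries fewer expressing cells and less RNA per cell cannot be told apart. The CPT1A difference of -0.23 (SE 0.11, limma adjusted p = 0.049) was about that median, and it was -0.03 after median-of-ratios scaling (adjusted p = 0.80) and 0.09 after quantile normalization (adjusted p = 0.44). ANGPTL4 differed by -0.18 (SE 0.13, limma adjusted p = 0.20), and by 0.17 after quantile normalization. Genes entered the test of a line only if their mean reached 1 TPM in some group. FGF21 did not in either line, VNN1 did not in Caco-2 cells and PDK4 did not in HepG2 cells, so 4 of the 6 genes were tested in each line.

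No gene among the 6 passed the threshold for FFAs in any comparison (limma, adjusted p under 0.05 over all genes tested), and few genes of the whole table did. In Caco-2 cells the percent of the 15081 tested genes called was 0% in mono-culture, 0.0199% in co-culture (3 genes, all lower and none a member, or 24 genes without replicate 2 of the co-cultured control) and 0% averaged over both cultures. Unadjusted p-values under 0.05 numbered 393, 427 and 601. Without that control library, 17 genes, none a member, were called in the averaged comparison. In HepG2 cells 0%, 0% and 0% of 14255 genes were called, with 319, 263 and 497 unadjusted p-values under 0.05. The values of the members are therefore given per library, and their position among all genes is described beside them.

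PDK4, the kinase that holds back pyruvate oxidation, had ratios of FFAs to control means from 2.31 to 5.92. In mono-cultured Caco-2 cells the 3 control libraries were at 0.75, 0.90 and 0.76 TPM and the 3 FFAs-treated libraries at 0.82, 1.18 and 3.56 TPM. In co-cultured Caco-2 cells the 2 control libraries were at 0.51 and 0.73 TPM and the 3 FFAs-treated libraries at 2.38, 5.14 and 3.49 TPM. The groups overlapped in mono-culture, where replicate 3 stood alone at the top, and did not overlap in co-culture, where every treated library was over 3 times the higher control.

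The ratio of mean TPM was 2.31 in mono-culture (1.85 ± 1.49 against 0.803 ± 0.084 TPM, SD, n = 3 and 3) and 5.92 in co-culture (3.67 ± 1.39 against 0.620 ± 0.156 TPM, SD, n = 3 and 2). On the log2(TPM + 1) scale, which understates changes of low genes, the differences were 0.54 (SE 0.33) and 1.49 (SE 0.37). Averaged over both cultures the difference was 1.02 (SE 0.25, limma unadjusted p = 0.00173, adjusted p = 0.99). PDK4 passed the filter in Caco-2 cells only through its treated groups, since both control means were under 1 TPM, so its place among the tested genes supports nothing. With the filter dropped the unadjusted p was 0.00405 (limma, adjusted p = 0.93), the 123rd smallest of 31100. The difference between the cultures was 0.95 (SE 0.50, limma adjusted p = 1.0), and 0% of genes were called for that difference, with 292 unadjusted p-values under 0.05. Without replicate 3 of the treated mono-culture the mono-culture difference was 0.14 and the averaged one 0.82.

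In HepG2 cells PDK4 was less abundant, and treated libraries again lay higher. The 3 control libraries of the mono-culture were at 0.07, 0.04 and 0.03 TPM and the 3 treated libraries at 0.17, 0.28 and 0.33 TPM. In co-culture the controls were at 0.04, 0.04 and 0.07 TPM and the treated libraries at 0.14, 0.25 and 0.27 TPM. All 6 treated libraries were above all 6 controls, in either culture and across both. Caco-2 marker RNA was 0.282% to 0.613% in the treated and 0.190% to 0.249% in the control libraries of the co-culture. In mono-culture it was 0.172% to 0.242% and 0.127% to 0.231%. The marker genes were chosen for near absence from the mono-cultured HepG2 controls, so that last range is low by construction. The part of carry-over in the PDK4 differences was not tested.

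The ratio of means was 5.57 in mono-culture (0.26 ± 0.0819 against 0.0467 ± 0.0208 TPM, SD, n = 3 each) and 4.4 in co-culture (0.22 ± 0.07 against 0.05 ± 0.0173 TPM, SD, n = 3 each). The files give such low values in steps of about 0.01 TPM, so each ratio rests on small differences in the control. With the filter dropped, limma gave an averaged difference of 0.24 on log2(TPM + 1) (SE 0.039, unadjusted p = 0.000118, adjusted p = 0.95), the 2nd smallest p of 29942 genes. With a pseudocount of 0.1 in place of 1, a setting chosen after these low values had been seen, it was 1.18 (SE 0.23). Its limma unadjusted p was then 0.000369 (adjusted p = 0.94), the 10th smallest.

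**Figure D2:**
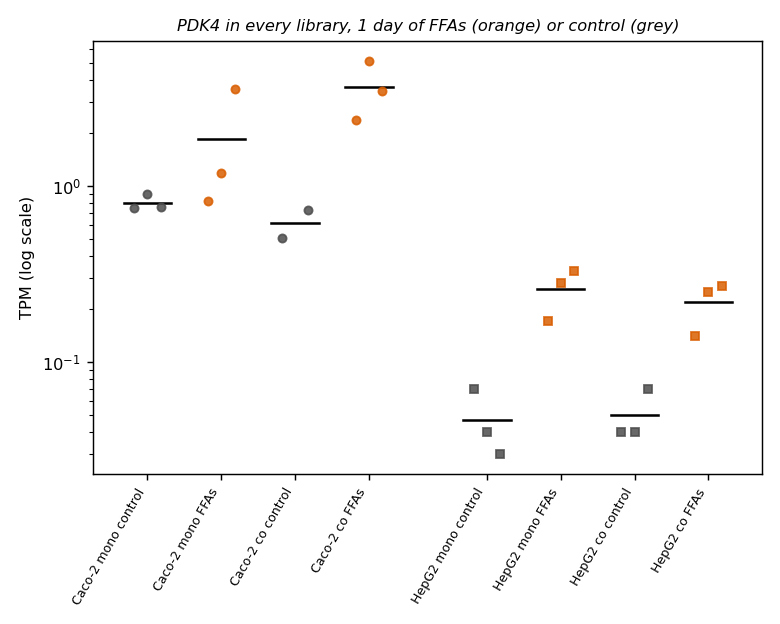
PDK4 in every library on a logarithmic TPM axis, by cell line, culture and treatment (circles Caco-2, squares HepG2, orange FFAs, grey control, bars group means). The treated HepG2 libraries, at 0.14 to 0.33 TPM, sit above all control HepG2 libraries, at 0.03 to 0.07 TPM, and the treated Caco-2 libraries reach 5.14 TPM.

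Complete separation of treated from control libraries was counted over all genes averaging 0.1 TPM or more in a line, a filter chosen after values had been seen. In HepG2 cells with both cultures pooled, 0.0465% of 19372 genes (9 genes) had every treated library above every control, PDK4 among them with a ratio of 4.97. PDK4 averaged 0.144 TPM and was over the limit only through its treated libraries (mean 0.24 against 0.0483 TPM in controls), so its place among these genes is a description and supports nothing. Within a culture, 3.08% of genes in mono-culture and 3.48% in co-culture did so, and of the 6 members only PDK4 in each. In Caco-2 cells 4.79% of 20710 genes did so in mono-culture, 7.85% in co-culture and 0.270% with the cultures pooled. Of the 5 members over that filter in Caco-2 cells, 1 did so in mono-culture (CPT1A), 3 in co-culture (PDK4, CPT1A and CREB3L3) and 1 pooled (CPT1A).

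PDK4 (ENSG00000004799, chr7:95583499-95596516, minus strand, GRCh38 in GENCODE v44, as for the other genes) is crossed on the other strand by the long noncoding RNA PDK4-AS1. Whether counting used the strand is not given in the sources used here, so reads from the stretch they share cannot be told apart. PDK4-AS1 was at 0 to 1.69 TPM in Caco-2 libraries, with at most 0.23 TPM in a control. In HepG2 libraries it reached 0.24 TPM in a control and 0.19 TPM in a treated library. Its median was 0 TPM in either line.

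CPT1A (chr11:68754620-68844410, minus strand), the mitochondrial gate for long-chain fatty acids, was higher with FFAs in Caco-2 libraries. In mono-cultured Caco-2 cells the controls were at 4.71, 5.87 and 5.97 TPM and the treated libraries at 9.10, 8.34 and 8.01 TPM. In co-culture the controls were at 4.24 and 7.48 TPM and the treated libraries at 11.5, 9.79 and 7.61 TPM. All 6 treated libraries were above all 5 controls, though in co-culture the lowest treated library exceeded the higher control only slightly.

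The ratio of means was 1.54 in mono-culture (8.48 ± 0.559 against 5.52 ± 0.70 TPM, SD, n = 3 each) and 1.65 in co-culture (9.64 ± 1.96 against 5.86 ± 2.29 TPM, SD, n = 3 and 2). The log2(TPM + 1) difference was 0.55 (SE 0.20) in mono-culture, 0.66 (SE 0.23) in co-culture and 0.60 (SE 0.15) averaged, with a limma unadjusted p of 0.00208, an adjusted p of 0.99 and the 28th smallest p of 15081. Leaving out replicate 1 or 2 of the co-cultured control moved the co-culture difference to 0.31 or 1.01, so that single libraries set its size.

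In HepG2 cells CPT1A was at a like level and showed no such order. The mono-cultured controls were at 6.45, 5.69 and 5.18 TPM and the treated libraries at 6.19, 4.67 and 6.24 TPM. The co-cultured controls were at 8.43, 4.66 and 5.07 TPM and the treated libraries at 6.03, 7.12 and 5.81 TPM. Treated and control libraries overlapped in both cultures, and the averaged difference was 0.03 (SE 0.15, limma adjusted p = 1.0).

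**Figure D3:**
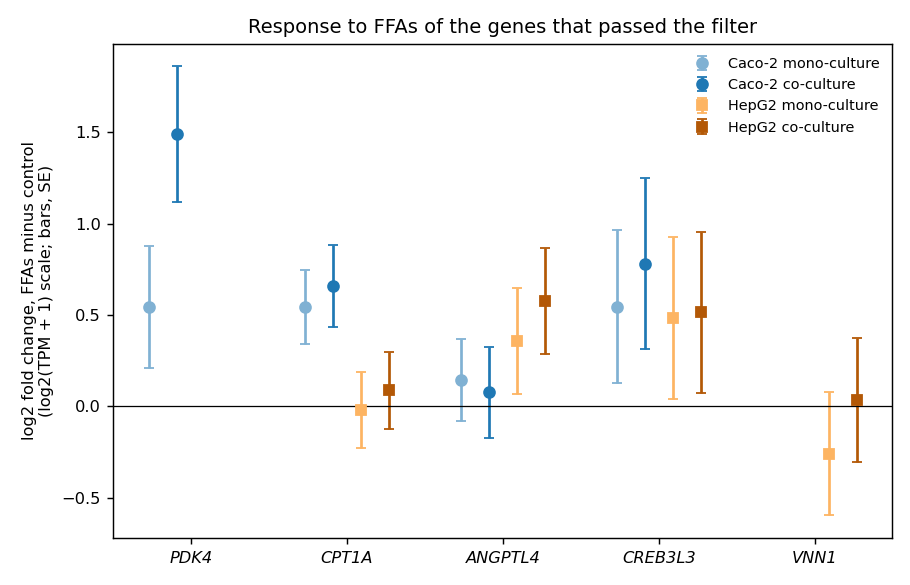
Difference between FFAs-treated and control cells on the log2(TPM + 1) scale for the genes that passed the filter, by line and culture, with SE bars from limma. PDK4 in co-cultured Caco-2 cells was highest at 1.49, CPT1A was near 0 in HepG2 cells, and no point passed the adjusted threshold.

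The difference between the lines was tested in one fit of all libraries. The averaged FFAs effect in HepG2 minus that in Caco-2 cells was -0.57 for CPT1A (SE 0.21, limma unadjusted p = 0.0143, adjusted p = 1.0) and -0.78 for PDK4 (SE 0.26, limma unadjusted p = 0.00741, adjusted p = 1.0). It was 0.36 (SE 0.25) for ANGPTL4, -0.16 (SE 0.48) for CREB3L3 and -0.11 (SE 0.27) for VNN1. Of all genes, 0.0182% were called (3 genes, none a member, or 19 genes without replicate 2 of the co-cultured Caco-2 control). PDK4 entered this fit only through its treated Caco-2 groups, and its value depended on the scale. Its ratio of means over both cultures was 3.78 in Caco-2 and 4.97 in HepG2 cells, and with a pseudocount of 0.1 and no filter the difference was -0.42 (SE 0.46, limma unadjusted p = 0.37). The CPT1A difference lay between -0.74 and -0.39 when any 1 library was left out.

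ANGPTL4 (chr19:8363289-8374370, plus strand), the lipase inhibitor, was low in both lines and nominally higher with FFAs in HepG2 cells. In mono-cultured HepG2 cells the controls were at 1.09, 2.50 and 1.00 TPM and the treated libraries at 1.74, 1.86 and 2.91 TPM. In co-cultured HepG2 cells the controls were at 0.70, 0.27 and 0.61 TPM and the treated libraries at 1.53, 0.67 and 1.74 TPM. The groups overlapped in both cultures, through replicate 2 of the control in mono-culture and replicate 2 of the treated cells in co-culture.

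The averaged difference for ANGPTL4 was 0.47 in HepG2 cells (SE 0.21, limma unadjusted p = 0.0423, adjusted p = 1.0). In Caco-2 cells it was 0.11 (SE 0.17), with control libraries at 0.79 to 1.90 TPM and treated ones at 1.14 to 2.31 TPM. ANGPTL4 was also lower in co-cultured than in mono-cultured HepG2 cells, with a difference of -0.58 averaged over both treatments (SE 0.21, limma unadjusted p = 0.0156, adjusted p = 0.28). Its target enzyme LPL was at 0 TPM in 10 of 11 Caco-2 and 9 of 12 HepG2 libraries and at most 0.07 TPM in the rest.

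CREB3L3 (chr19:4153631-4173054, plus strand), the transcription factor of fasting lipid metabolism and the gene with the near match to DR1 shown above, varied widely between replicates. In mono-cultured HepG2 cells the controls were at 36.9, 40.5 and 13.5 TPM and the treated libraries at 47.4, 41.2 and 29.5 TPM. In co-cultured HepG2 cells the controls were at 23.6, 22.9 and 8.20 TPM and the treated libraries at 32.9, 23 and 18.3 TPM. Replicate 3 was the lowest library of all 4 groups, and treated and control libraries overlapped. In both cultures every treated library was above the control of the same replicate number.

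The averaged FFAs difference of CREB3L3 in HepG2 cells was 0.50 (SE 0.31, limma adjusted p = 1.0), and it was 0.26 without replicate 3 of the mono-cultured control. With the replicate number as a block it was 0.50 (SE 0.15, limma adjusted p = 0.66). The co-culture difference averaged over both treatments was -0.68 (SE 0.31, limma adjusted p = 0.40). With the block it was -0.68 (SE 0.15, limma adjusted p = 0.0413). Whether equal replicate numbers pair libraries is not given in the labels. In Caco-2 cells the mono-cultured controls were at 5.20, 5.90 and 1.05 TPM and the treated libraries at 5.84, 4.59 and 6.12 TPM. The co-cultured controls were at 3.47 and 3.82 TPM and the treated libraries at 7.75, 10.5 and 4.05 TPM. Only the co-cultured groups did not overlap.

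The averaged difference of CREB3L3 in Caco-2 cells was 0.66 (SE 0.31, limma unadjusted p = 0.0582, adjusted p = 0.99), and it was 0.38 without replicate 3 of the mono-cultured control. HepG2 markers reached 2.08% in the treated co-cultured library at 7.75 TPM, while the library at 10.5 TPM was at 0.242%. The part of carry-over in this difference was not tested.

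VNN1 (chr6:132680849-132714055, minus strand), the pantetheinase, was above 1 TPM in every HepG2 library and in no Caco-2 library, and its treated and control libraries overlapped. The mono-cultured HepG2 controls were at 3.12, 4.38 and 1.20 TPM and the treated libraries at 2.09, 3.04 and 1.28 TPM. The co-cultured controls were at 2.19, 1.41 and 1.76 TPM and the treated libraries at 2.42, 2.11 and 1.15 TPM. The averaged difference was -0.11 (SE 0.24, limma adjusted p = 1.0). In Caco-2 cells VNN1 was listed at 0 in 4 of 11 libraries and reached 0.14 TPM in the rest, its highest value being in the library with the most HepG2 marker RNA. The part of carry-over in that value was not tested.

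FGF21, the fasting hormone, was at or under 1.05 TPM everywhere. In Caco-2 cells the mono-cultured controls were at 0.13, 0.06 and 0.29 TPM and the treated libraries at 0.54, 0.53 and 0.05 TPM. The 2 co-cultured Caco-2 controls were at 0.12 and 0.87 TPM and the treated libraries at 0, 0.11 and 0.51 TPM. In HepG2 cells it ranged from 0 to 1.05 TPM in controls and from 0 to 0.50 TPM in treated libraries. All groups overlapped. The ratio of means was 2.33 in mono-culture and 0.417 in co-culture in Caco-2 cells, and 0.477 and 0.696 in HepG2 cells. FGF21 was under the filter, and with the filter dropped its averaged FFAs difference was -0.03 (SE 0.18, limma adjusted p = 0.98) in Caco-2 and -0.15 (SE 0.20, limma adjusted p = 0.95) in HepG2 cells. The gene lies at chr19:48755524-48758333 on the plus strand.

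In the fit without the replicate number as a block, co-culture moved none of the members past the threshold. In Caco-2 cells 0% of genes were called for co-culture averaged over both treatments (limma, 1578 unadjusted p-values under 0.05), and in HepG2 cells 0.0561% (8 genes, none a member, 1789 unadjusted p-values under 0.05). Of these 8, 4 were higher and 4 lower, or 6 and 2 after median-of-ratios scaling, and 0 genes were called without replicate 1 of the mono-cultured control. These counts depended on the model. With the replicate number as a block, 60 of 15081 genes were called in Caco-2 and 492 of 14255 in HepG2 cells, CREB3L3 among the latter. Among the 4 tested members in Caco-2 cells the differences were 0.09 to 0.32. For the FFAs effect in co-culture minus that in mono-culture, 0% of genes were called in HepG2 cells (limma, 166 unadjusted p-values under 0.05), and the members tested lay between 0.03 and 0.29.

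The receptors and their partners were present in both lines. PPARG had a median of 33.7 TPM in Caco-2 and 30.5 TPM in HepG2 libraries, PPARA 9.44 and 11.7 TPM, PPARD 10.4 and 9.60 TPM, and RXRA 16.0 and 15.8 TPM. RXRG was at 0 in 11 of 11 Caco-2 and 11 of 12 HepG2 libraries. The coactivator PPARGC1A had a median of 20.1 TPM in HepG2 libraries and 0.05 TPM in Caco-2 libraries, and its relative PPARGC1B 1.20 and 7.65 TPM. Of 16 receptors and partners, 0 of the 14 tested in Caco-2 and 0 of the 15 tested in HepG2 cells were called for FFAs (limma, averaged). The largest differences were 0.21 for HNF4A (SE 0.10) and -0.19 for PPARG (SE 0.071) in Caco-2 cells, and -0.24 for PPARGC1A (SE 0.25) and -0.23 for PPARG (SE 0.10) in HepG2 cells.

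Other PPAR target genes were compared with the 6. In Caco-2 cells 0 of 31 tested were called, 21 had positive and 10 negative averaged differences, and the median was 0.06, beside 0.01 for all genes tested. PLIN2, which coats lipid droplets, was furthest from 0 at 0.50 (SE 0.13, limma unadjusted p = 0.00243, adjusted p = 0.99), from 119 to 175 TPM in controls and from 140 to 254 TPM in treated libraries. It was followed by SLC25A20, the mitochondrial carnitine-acylcarnitine carrier, at 0.24 (SE 0.10). In HepG2 cells 0 of 33 tested were called, 20 had positive and 13 negative differences, and the median was 0.04, beside 0.01 for all genes.

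In HepG2 cells HILPDA, an inhibitor of lipolysis on lipid droplets, was at 0.42 (SE 0.17), GK, the glycerol kinase, at -0.50 (SE 0.33) and APOA5 at 0.38 (SE 0.34). For co-culture averaged over both treatments, 8 of these genes had positive and 25 negative differences in HepG2 cells, with a median of -0.24 beside -0.02 for all genes, and 9 had an unadjusted p under 0.05 on the lower side but 0 an adjusted one (limma). The hepatocyte markers moved alongside, with 0 positive and 12 negative differences and a median of -0.24, and their summed level was 67971 to 89082 TPM in co-culture against 84676 to 101766 TPM in mono-culture. Their part in this was not tested.

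**Figure D4:**
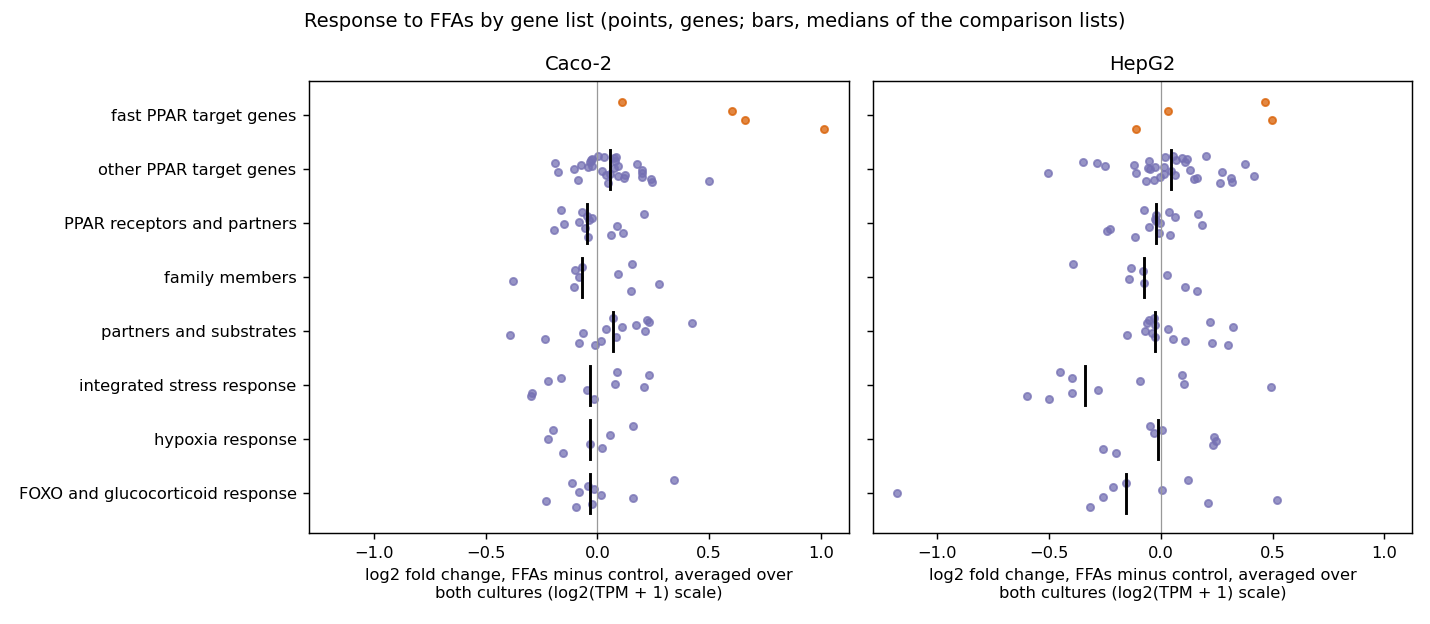
Averaged difference between FFAs-treated and control cells on the log2(TPM + 1) scale for the tested genes of 8 lists in Caco-2 (left) and HepG2 cells (right), each point a gene and each black bar the median of a comparison list. No median is drawn for the 4 tested members, since PDK4 passed the filter in Caco-2 cells only through its treated groups. Of the other lists, the stress response list in HepG2 cells has the lowest median, at -0.34.

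Relatives of the 6 genes were described in the same way. Among 15 family members, 0 of 9 tested in Caco-2 and 0 of 8 tested in HepG2 cells were called for FFAs (limma, averaged), and the medians were -0.07 and -0.08. PDK1, also an inhibitor of pyruvate dehydrogenase, was at 0.27 (SE 0.15) in Caco-2 cells, FGF19 at -0.38 (SE 0.37), and ANGPTL8 at -0.39 (SE 0.29) in HepG2 cells. Among 17 partners and substrates, 0 of 15 were called in either line. In Caco-2 cells 10 had positive and 5 negative differences, from -0.39 to 0.43, with a median of 0.07. In HepG2 cells 7 were positive and 8 negative, from -0.15 to 0.32, with a median of -0.02. The pyruvate dehydrogenase subunit PDHA1 was at -0.24 (SE 0.082, limma unadjusted p = 0.015, adjusted p = 0.99) in Caco-2 cells. KLB, the co-receptor of FGF21, was at 0.32 (SE 0.12, limma unadjusted p = 0.0198, adjusted p = 1.0) in HepG2 cells, where its median level of 60.9 TPM exceeded the 8.48 TPM of Caco-2 cells.

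Lists of other signals that act on members were read the same way, and 0 genes of each were called for FFAs in either line (limma, averaged). The integrated stress response, which induces FGF21, had 3 positive and 7 negative differences in HepG2 cells with a median of -0.34, led by TRIB3 at -0.60 (SE 0.29), and its median was negative in both cultures (-0.44 without and -0.14 with the other line). In Caco-2 cells it had 7 positive and 3 negative differences in mono-culture (median 0.24) but 1 positive and 9 negative in co-culture (median -0.21), and the averaged median was -0.03. None of these genes was called in either culture, and the difference between the cultures was not tested for the list. The hypoxia response, a known inducer of ANGPTL4, had medians of -0.03 in Caco-2 and -0.01 in HepG2 cells. The FOXO and glucocorticoid list, which includes signals that induce PDK4, had medians of -0.03 and -0.16. FKBP5, a glucocorticoid-induced chaperone, was at 0.34 (SE 0.098, limma unadjusted p = 0.00487, adjusted p = 0.99) in Caco-2 cells, and IGFBP1 at -1.18 (SE 0.59, adjusted p = 1.0) in HepG2 cells.

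The genes whose log2(TPM + 1) followed each tested member most closely across the libraries of a line are given as a description. Over 11 Caco-2 libraries PDK4 was nearest to MREG (Pearson r = 0.92), VPS41 (0.91) and LRTOMT (0.90), and CPT1A to PAQR3 (0.93), TSPAN18 (0.92) and RNASET2 (0.91). ANGPTL4 was nearest to RLN2 (0.95), NUDT21 (0.93) and EXD2 (0.93), and CREB3L3 to MARC1 (0.97), AC132008.2 (0.96) and CASTOR1 (0.95). Over 12 HepG2 libraries CPT1A was nearest to DNAAF3 (0.82), HERC2 (0.81) and TGM1 (0.80), and ANGPTL4 to ARSD (0.93), POM121C (0.93) and FBLN5 (0.92). CREB3L3 was nearest to SPG7 (0.96), SLC35E2A (0.96) and AK4 (0.96), and VNN1 to FAM160A2 (0.96), IGFBP2 (0.94) and ARHGAP27 (0.94). These are the highest of 15080 genes in Caco-2 and 14254 in HepG2 cells, the libraries share treatment, culture and replicate number, and none of the nearest genes was on the PPAR lists. Among the members, r lay between -0.10 and 0.62 in Caco-2 cells, highest for PDK4 with CPT1A, and between 0.0019 and 0.61 in HepG2 cells, highest for VNN1 with CREB3L3.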

How the data were processed

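TPM were deposited by the authors, in a separate table for each library. According to the labels and methods, polyadenylated RNA was amplified with SMART-Seq v4, rRNA, tRNA and mitochondrial reads were discarded (Bowtie2 2.1.0), alignment to GRCh38 used STAR 2.7.1a with the annotation of Ensembl 98, and RSEM 1.3.0 gave the values. TPM hold no counts, so no counting error can be given. The labels give 0.5% serum during treatment where the methods give serum-free medium with albumin, and their extraction text names myoblasts. Groups came from the labels. The libraries of the longer treatment were not analysed here.

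Here, log2(TPM + 1) was fitted with limma 3.58.1 (R 4.3.3, eBayes, trend), with the 4 groups of a line, or all 8 groups, together. Genes whose mean reached 1 TPM in some group were tested, p-values were adjusted over all of them (Benjamini-Hochberg), and 0.05 was the threshold. The fit was tested on simulated data. Members and lists were chosen with earlier results of these data known. Named genes were the members, their 3 nearest genes by correlation, overlapping genes and, from each list and line, up to 4 with the largest averaged FFAs difference, not all of them printed. Of the list of other PPAR targets, 1 gene is not reported here and was left out of the list's counts. Alternatives were another pseudocount, other filters, scalings and variance models, the replicate number as a block, and leaving out each library.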

Additional observations from a re-analysis of the deposited data

How the results depend on the processing

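No FFAs comparison called a member under any alternative run. The averaged FFAs differences of CPT1A, ANGPTL4 and CREB3L3 in Caco-2 cells, and of ANGPTL4 and CREB3L3 in HepG2 cells, were positive in all of them. Counts of genes called did move, and the cause was not tested. Comparisons are given as FFAs in mono-culture, FFAs in co-culture, FFAs averaged, the culture difference of the FFAs effect, and co-culture averaged. Without the filter, Caco-2 counts were 2, 11, 7, 10 and 7. Without the trend they were 2, 5, 7, 7 and 8. With no filter and a pseudocount of 0.1, chosen after seeing the data, they were 2, 13, 9, 9 and 9. FFAs in co-cultured Caco-2 cells gave 0 genes with a pseudocount of 0.1 or a limit of 5 TPM, and 1 with only the groups compared, which also gave 1 in mono-culture. In HepG2 cells the absence of a filter gave 1 gene in FFAs in mono-culture, FFAs averaged, the culture difference and co-culture averaged, and with the smaller pseudocount as well 1 each for FFAs in either culture and 3 for co-culture averaged. For the latter, 22 genes were called at 5 TPM, 4 with quantile normalization and 4 without the trend. The difference of the FFAs effect between lines gave 9 genes without the filter, 1 at 5 TPM and 13 with no filter and the smaller pseudocount.

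With each library left out in turn, Caco-2 counts ran from 0 to 1, 2 to 24, 0 to 17, 0 to 12 and 0 to 13, and each upper value but the first came without replicate 2 of the co-cultured control. HepG2 counts ran from 0 to 1, 0 to 0, 0 to 0, 0 to 0 and 0 to 15, the 0 of co-culture averaged being without replicate 1 of the mono-cultured control. Between lines the range was 12744 to 13025 for levels and 3 to 19 for the FFAs effect.

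The replicate block gave 60 genes for co-culture averaged in Caco-2 and 492 in HepG2 cells. It moved no other count by over 1.5 times, and added 1 member call, CREB3L3 for co-culture averaged in HepG2 cells (-0.68, limma adjusted p = 0.0413). The call of CPT1A for the line difference was lost with the block (limma adjusted p = 0.0556). The deviations of same-numbered libraries from their group means correlated above 0.1 in 7 of 15 Caco-2 and 15 of 18 HepG2 pairs. Numbers were taken to pair libraries only where every pair did so, hence the block was not used for the main values. As a hint from the data in HepG2 cells, the median r was 0.30 for same-numbered pairs (lowest 0.028) and -0.23 for other pairs. There 10 of 12 libraries, against 7 of 11 in Caco-2 cells, correlated best with their own number. Deviations cancel within a group by construction, so the median of the other pairs is not separate support. The co-cultured Caco-2 controls are mirror images for the same reason, which partly sets the Caco-2 counts. CREB3L3 was lower in co-culture in all 6 same-numbered HepG2 pairs, and higher with FFAs in all 6 pairs of the same number and culture.

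Quantile normalization turned VNN1 in co-cultured HepG2 cells to -0.0062, and the line differences of CPT1A to 0.091 and ANGPTL4 to 0.17. The line difference of CPT1A lost its call without a change of sign in 20 of 32 alternatives, and also lost it with quantile normalization, which turned its sign. With each library left out in turn, the following log2 differences, none of them called, changed sign. In Caco-2 cells, FFAs in mono-culture ran from -0.014 to 0.33 for ANGPTL4 and from -0.013 to 0.86 for CREB3L3, and FFAs in co-culture from -0.025 to 0.15 for ANGPTL4. The culture difference ran from -0.23 to 0.46 for CPT1A, -0.26 to 0.091 for ANGPTL4 and -0.082 to 0.79 for CREB3L3, and co-culture averaged from -0.079 to 0.27 for CPT1A and -0.098 to 0.35 for CREB3L3. In HepG2 cells, CPT1A ran from -0.085 to 0.095 in mono-culture, -0.052 to 0.32 in co-culture and -0.036 to 0.15 averaged, and VNN1 from -0.62 to 0.020, -0.099 to 0.24 and -0.29 to 0.028. The culture difference ran from -0.031 to 0.34 for CPT1A, -0.036 to 0.44 for ANGPTL4 and -0.43 to 0.51 for CREB3L3, and co-culture averaged from -0.036 to 0.15 for CPT1A. The line difference of the FFAs effect ran from -0.40 to 0.12 for CREB3L3 and -0.30 to 0.026 for VNN1. Since TPM hold no depth, the precision of values under 1 TPM, such as those of PDK4 in HepG2 cells and FGF21, is known only from the replicates.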
